A study of Danio rerio with 32 samples.

Results

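The step from the low to the mid concentration of dichlorvos (DDVP) was examined in the liver of the zebrafish, by setting the 4 mid arrays directly against the 4 low arrays, without the controls. These were 8 of the 32 arrays of the series, and all 5481 probes of the deposited table were tested. Both groups were adult male zebrafish of the Tübingen strain, given in the labels as 6 to 9 months old, held for 24 h in flow-through aquaria with DDVP at a target of 6 mg/L (low) or 19 mg/L (mid). The mid concentration that the study measured in the water was somewhat below its target. For reference, 8 control arrays came from fish held for 24 h without toxicant and 4 arrays from fish held for 24 h at a target of 32 mg/L (high). A separate feeding experiment without toxicant gave 4 arrays each of fed fish, of fish labelled as unfed for 24 h and of fish left unfed for 50 h. Each array held liver RNA pooled in equal amounts from several males, so the spread between replicates was that between pools, and the sources used here do not say how many aquaria stood behind a concentration.

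DDVP is an organophosphorus pesticide that blocks acetylcholinesterase, and as a reactive ester it can also modify other proteins. Liver cells answer damaged proteins and electrophiles with known programmes: the proteasome degrades proteins marked with ubiquitin, chaperones refold them, and the glutathione system, supplied with NADPH by the pentose phosphate pathway, conjugates and reduces reactive compounds. In its resting state the liver oxidises fatty acids in mitochondria and peroxisomes, stores glycogen, metabolises xenobiotics through cytochrome P450 enzymes and secretes clotting, complement and lipoprotein proteins.

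The deposited values were log2 expression values of 5481 probes that the authors had chosen because they changed across these same arrays, so shares of changed probes describe that selection and not the whole transcriptome. Of these probes 3295 carried a symbol, for 2581 genes, and 2186 stayed unnamed. Replicates were alike, with r2 of 0.954 to 0.974 between low arrays and 0.955 to 0.971 between mid arrays, after the study had accepted only arrays that met a limit on this agreement. Of the hepatocyte marker list, 5 of 15 genes were in the table (*apobb.1*, *cp*, *fgb*, *fgg* and *gc*). Their 7 probes had log2 means of 10.98 to 15.25 at low and their median step was -0.74, with 1 probe called lower at mid. Summed over the list, the log2 of the summed level was 17.26 to 17.49 on the low arrays and 16.64 to 16.96 on the mid arrays. Among the other cell types, the red cell list was represented only by *hemgn* (log2 change of -1.45, not called) and the bile duct list only by *sox9b* (-0.36, not called). Markers of exocrine pancreas, macrophages and neutrophils, endothelium, intestine and muscle, and the egg yolk proteins of the female liver, were outside the table, so their part in the results was not tested. In pooled tissue, fewer cells of a type and less RNA per cell cannot be told apart.

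From low to mid, 1029 probes changed, 18.8% of those tested: 516 were higher at mid (9.41%) and 513 lower (9.36%). A probe was called when its limma adjusted p (Benjamini-Hochberg, over all 5481 probes) was at most 0.001 and its change at least 1.8-fold. In the counts of gene lists below, rose and fell mean called higher and called lower. The 8 arrays did not overlap between the groups in 3054 probes (55.7%). Genes named below other than from gene lists had to meet this condition, so for them it is not a result. The root mean square log2 change over all probes was 0.88 from low to mid, with 1154 probes moving at least 2-fold, and 0.42 from mid to high, with 142 probes moving at least 2-fold. In the same direct test of 4 high against 4 mid arrays limma called 0 probes (0.0%), with 1549 probes (28.3%) at an unadjusted p below 0.05 against 3668 (66.9%) for the step from low to mid. With 1 estimate of spread over all 20 DDVP and control arrays it called 75 probes (1.37%) for mid to high and 1416 for low to mid. Both steps share the mid arrays, and 10 probes had steps that differed from each other (*adka*, *igfbp1a*, *hrh3* and unnamed probes).

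The count of called probes has a limit in the way the table was made. In every probe the mean of the first control set equalled that of the second. The study describes removing a batch effect between the DDVP and feeding experiments, but no step that made the control sets equal. The error of those control means is absent from a direct test of mid against low. The labels do not tie a control set to a concentration. If low and mid were adjusted with different control sets, concentration and set cannot be told apart at this step. When the spread of 1 control set against each concentration was added, the changes were the same and the standard errors were larger (median 0.24 in place of 0.16), and 471 probes were called (8.59%), 217 higher (3.96%) and 254 lower (4.63%). Of 110 called probes that the naming rule chose, 72 kept their calls in that fit, and 66 kept them in all 8 fits that left out 1 array. Leaving out low replicate 3 or 4 or mid replicate 1 or 2 left 570, 556, 569 and 543 probes called.

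**Figure D1:**
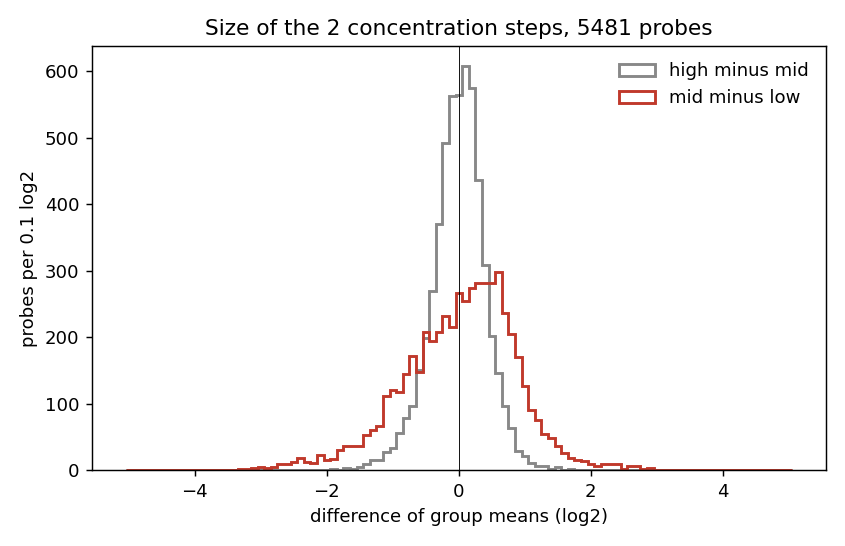
Histogram of the log2 differences of group means over the 5481 probes, for mid minus low (red) and high minus mid (grey), with the number of probes per 0.1 log2 on the vertical axis. The mid minus low differences spread from -3.85 to 4.93 and the high minus mid differences from -2.79 to 2.31.

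Setting each called probe against the 8 controls separated changes that began at this step from those already under way at low. Of the 1029 probes, 345 started here, with low within 0.32 of the control mean on the log2 scale, and 244 of these rose while 101 fell. Another 279 continued a change that low already showed against the controls, by the same thresholds (77 higher and 202 lower), and 44 reversed it (19 higher and 25 lower). Over all probes 30.5% were called at low and 62.5% at mid against the controls. The remaining 361 lay between these classes (176 higher and 185 lower). The classes use the low arrays on both sides, so they are a description of the probes and were not tested themselves. With the spread of the controls added, 139 of the starting and 16 of the reversing probes were called at the step.

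**Figure D2:**
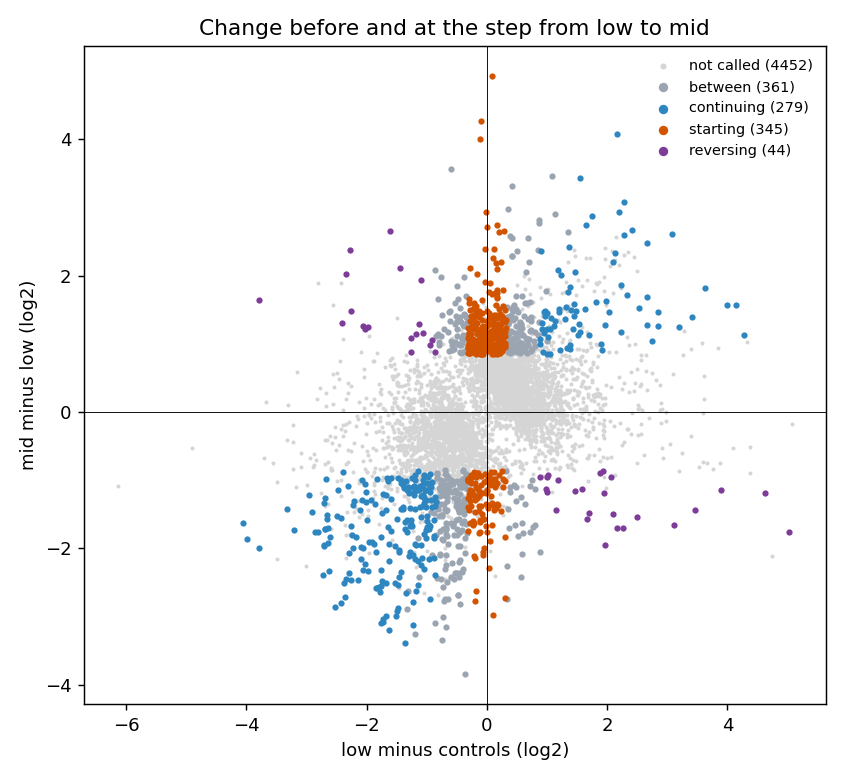
Each of the 5481 probes by its log2 difference of low minus controls (horizontal) and mid minus low (vertical), coloured by class, with the number of probes of each class in the key. Starting probes stand in the column around 0, and the 44 reversing probes lie in the upper left and lower right corners. The low arrays enter both axes with opposite signs.

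Proteasome genes had the highest share of rising probes among the 37 gene lists examined. Of 40 proteasome probes (34 genes), 24 were called higher and 0 lower, 60.0% against 9.41% of all probes, and the median step was 1.00 against 0.10 over all probes. By sign alone 39 changes were positive and 1 was negative, at -1.18 with no overlap between the groups but not called. Against the controls the list had a median of 0.22 at low, 1.32 at mid and 1.48 at high, and 16 of its probes were of the starting class. Over all probes the median against the controls was 0.05 at low and 0.45 at mid. For *psmc3*, an ATPase of the regulatory particle, the low arrays read 11.98, 11.46, 11.53 and 11.44 and the mid arrays 13.08, 13.82, 13.49 and 13.20 on the log2 scale. All 4 mid arrays stood above all low arrays and above the control range of 10.96 to 11.78, with a log2 change of 1.79 ± 0.19 (SE), 3.46-fold higher, adjusted p = 7.2e-05. For *psmd11b*, a lid subunit of the regulatory particle, low read 9.30, 9.36, 9.38 and 9.37 and mid 10.98, 10.82, 10.92 and 10.56. It already stood 0.96 above the controls at low and moved by a further 1.47 ± 0.13, adjusted p = 3.3e-05, which makes it the 1 proteasome probe that continued an earlier rise.

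Some genes of ubiquitin shuttling and protein folding rose too. *rad23ab* and *ubqln4*, which carry ubiquitinated proteins to the proteasome, rose by 2.05 ± 0.31 and 1.57 ± 0.14 on the log2 scale (adjusted p = 4.1e-04 and 4.0e-05). They belong to a ubiquitin conjugation and removal list of 67 probes, of which 9 rose (13.4% against 9.41% of all probes) and 1 fell, *rnf34a*, a RING-type ubiquitin ligase gene (-1.14 ± 0.12). Of 47 cytosolic chaperone probes (35 genes) 13 rose (27.7%), 0 fell and 34 were not called, with a median step of 0.71. The largest was *zfand2a*, a stress-induced partner of the proteasome, which read 11.56, 10.50, 10.81 and 10.81 at low and 13.97, 14.04, 14.01 and 14.01 at mid, against 8.28 to 9.02 in the controls. The mid arrays were nearly equal to each other and far above low (log2 change of 3.09 ± 0.20 (SE), 8.5-fold higher, adjusted p = 1.4e-05), while low was already 2.27 above the controls. *hspa4a*, a chaperone of the Hsp110 family, rose by 2.20 ± 0.31 from a low level 0.70 above the controls. Under the spread of the controls, 15 proteasome and 9 chaperone probes were called higher, beside 3.96% of all probes, and leaving out 1 array at a time gave 12 to 20 and 7 to 12. The ubiquitin list then had 5 called higher, *rnf34a* was not called with the spread of the controls (adjusted p = 0.0027), and *rad23ab* and *hspa4a* lost their calls in at least 1 fit that left out an array.

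Genes for making ribosomes also rose. In the ribosome biogenesis list (85 probes, 62 genes) 31 probes were called higher and 0 lower, 36.5% higher against 9.41% of all probes. By sign alone 79 changes were positive and 6 negative, down to -1.01. The median step was 0.81, and the median against the controls went from 0.42 at low to 1.21 at mid (0.05 and 0.45 over all probes). *polr1c*, a subunit shared by RNA polymerases I and III, read 9.90, 10.04, 9.87 and 10.05 at low and 11.89, 12.02, 11.45 and 11.28 at mid, with no overlap (1.69 ± 0.17, adjusted p = 6.1e-05). *ddx51*, an RNA helicase of ribosome assembly, read 9.13, 8.40, 9.34 and 8.85 at low, inside or below the control range of 8.85 to 9.47, and 10.71, 10.65, 10.24 and 10.10 at mid (1.5 ± 0.22, adjusted p = 3.5e-04). Adding the spread of the controls left 12 probes of this list called higher, beside 3.96% of all probes, and leaving out 1 array at a time 11 to 23, with *ddx51* lost in some of those fits.

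Genes of the mitochondrial ribosome rose as well. Of 34 probes for its proteins (29 genes) 14 rose (41.2% against 9.41% of all probes) and 1 fell. The median step was 0.72, and the list median stood at -0.17 against the controls at low and at 0.63 at mid. Over all probes these medians were 0.05 and 0.45, so the mid level itself was not far from that of the table. *mrpl3*, of the large subunit, read 8.70, 8.93, 9.37 and 9.04 at low and 10.52, 10.62, 10.09 and 10.36 at mid, so all 4 mid arrays lay above all low arrays (1.39 ± 0.17, adjusted p = 1.6e-04). *mrps2*, of the small subunit, stepped by 1.26 ± 0.14, adjusted p = 9.6e-05. The exception was *mrpl51* (-1.8 ± 0.28), which continued a lower level at low (-2.24). Another exception among mitochondrial translation genes was *tsfm*, the elongation factor Ts of mitochondria and 1 of the 10 largest falls, which read 13.18, 11.49, 13.34 and 12.98 at low and 9.30, 9.09, 9.73 and 10.40 at mid (-3.12 ± 0.41, adjusted p = 1.9e-04). The low arrays, and likewise the mid arrays, ranked in the same order for *tsfm*, *mrpl51* and the unrelated *rab11bb* and *atf7a*. Whether these probes read a shared signal was not tested, so they may not be separate falls. Of 46 translation factor probes 10 rose (21.7%) and 0 fell, led by *abcf1*, a protein of translation initiation (1.51 ± 0.25), and by *eef2kmt*, a methyltransferase of an elongation factor (1.42 ± 0.17). For mitochondrial ribosomal proteins 7 probes, and for translation factors 3, were called higher with the spread of the controls, against 3.96% of all probes. In that fit *mrps2*, *mrpl51* and *abcf1* were lost (adjusted p = 0.0015, 0.0017 and 0.0016). Leaving out 1 array gave 7 to 12 and 2 to 8, and *abcf1* and *mrpl51* each kept their calls in 2 of 8 such fits.

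**Figure D3:**
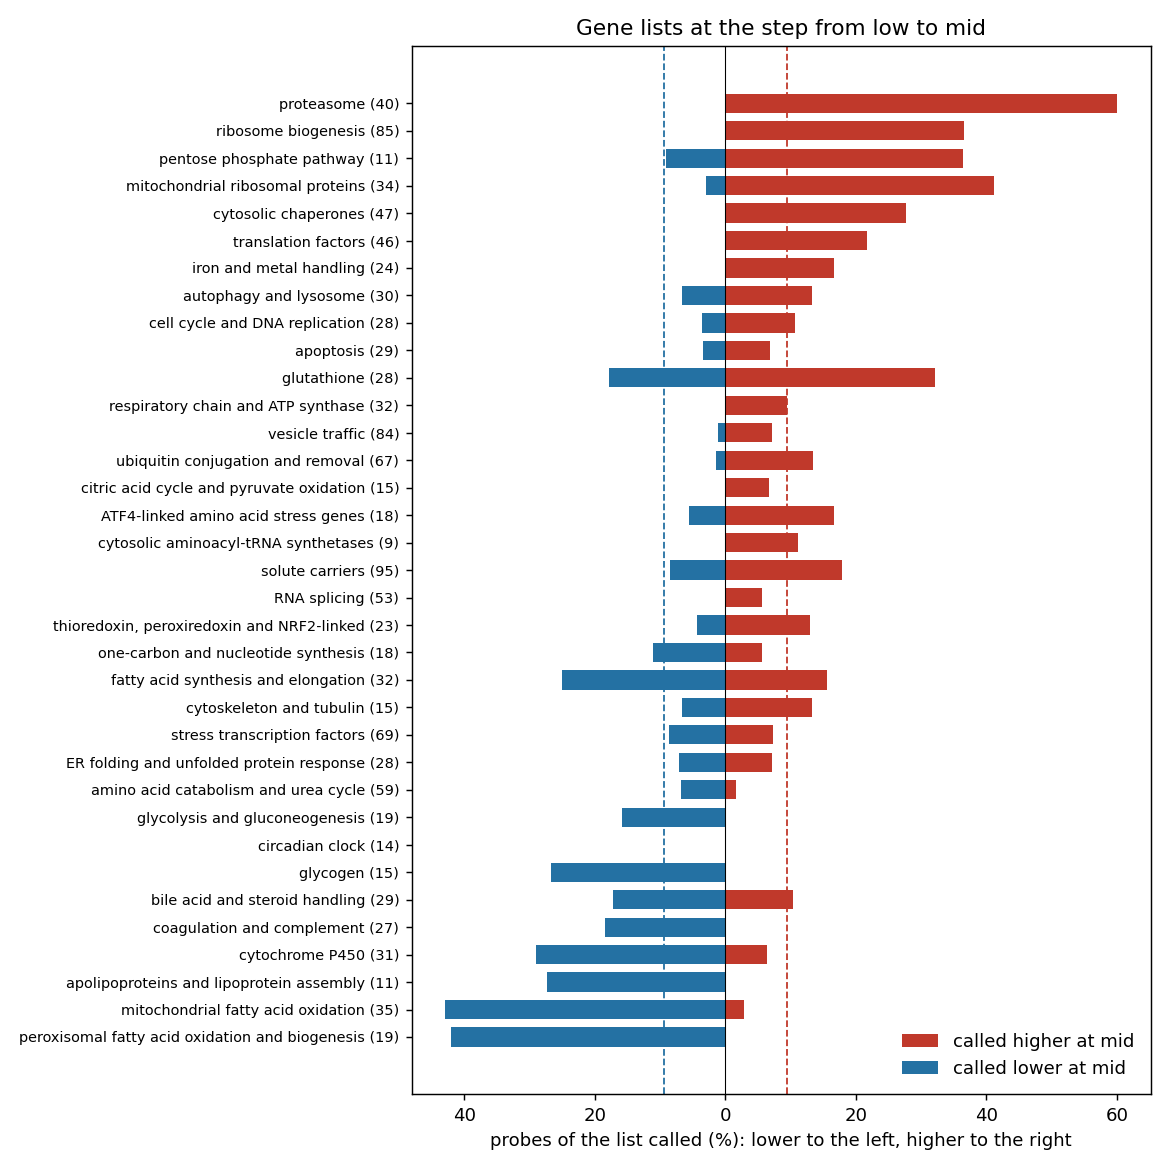
Share of the probes of each of 35 gene lists called higher (red, to the right) or lower (blue, to the left) at mid than at low, in percent, with the number of probes in brackets and lists ordered by their median step. Dashed lines mark the shares over all 5481 probes, 9.41% higher and 9.36% lower. Proteasome leads the higher side with 60.0%, and mitochondrial fatty acid oxidation the lower side with 42.9%.

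Among the named genes that started at this step, *ptgr1.1*, a reductase of reactive unsaturated carbonyl compounds, moved most. It read 7.92, 8.11, 8.57 and 8.59 at low and 13.10, 12.80, 11.21 and 13.13 at mid. Low lay inside the control range of 7.76 to 9.20, and every mid array stood above it, although 1 mid array was clearly below the other 3 (log2 change of 4.26 ± 0.39 (SE), 19.2-fold higher, adjusted p = 4.0e-05). *slc16a3b*, a transporter of lactate and other monocarboxylates, read 6.21, 6.24, 6.15 and 5.99 at low and 9.52, 8.88, 8.27 and 9.65 at mid, with controls at 5.61 to 6.54. Its step was 2.94 ± 0.27, adjusted p = 4.0e-05, and both of its probes rose. *ankrd22*, which codes for an ankyrin repeat protein, stepped by 2.63 ± 0.16, adjusted p = 1.4e-05, with all 4 low arrays inside the control range and all 4 mid arrays above it. *slc39a6*, a zinc transporter, and *ugt5a1*, a glucuronosyltransferase, rose by 1.91 ± 0.15 and 1.64 ± 0.19 from low levels -0.03 and -0.08 against the controls. *rpa1*, a subunit of the protein that covers single-stranded DNA, rose by 1.59 ± 0.18.

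For a pair of starting genes the controls themselves were spread widely. *scd*, the desaturase that makes monounsaturated fatty acids, read 7.92, 7.35, 6.74 and 8.31 at low and 11.74, 12.04, 11.37 and 11.19 at mid, a log2 change of 4.01 ± 0.32 (SE), 16.1-fold higher, adjusted p = 2.0e-05. The controls ran from 5.70 to 9.77, which holds all low values and no mid value, and with that spread added the adjusted p was 0.0014, so the call was lost. *cldnb*, a tight junction protein, stepped by 2.66 ± 0.32, adjusted p = 1.2e-04, and its adjusted p with the spread of the controls was 0.0018. Only 1 of the 2 *cldnb* probes was called.

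Starting falls were fewer. *adka*, adenosine kinase, read 14.48, 14.49, 14.62 and 14.68 at low and 12.44, 12.23, 12.80 and 12.22 at mid on 1 of its probes, with controls at 14.51 to 14.93. The step was -2.14 ± 0.15 (adjusted p = 1.5e-05), and all 4 of its probes were called, by -2.34 to -2.11. On 2 of the 4 low was already somewhat below the controls, by -0.41 and -0.47, so those probes were not of the starting class. *cbr4*, a carbonyl reductase that also serves fatty acid synthesis in mitochondria, read 11.02, 11.04, 11.24 and 11.24 at low and 8.72, 9.23, 9.10 and 9.25 at mid (-2.06 ± 0.15, adjusted p = 1.6e-05). *mpc2b*, a subunit of the carrier that brings pyruvate into mitochondria, read 13.49, 13.68, 13.73 and 13.65 at low and 12.24, 12.02, 11.80 and 11.45 at mid (-1.76 ± 0.17, adjusted p = 4.5e-05). All low arrays of *cbr4* and *mpc2b* lay inside their control ranges and all mid arrays below them. *timp2a*, an inhibitor of matrix metalloproteinases, fell by 2.62 (SE 0.27) and *tmt1a.1*, a thiol methyltransferase gene, by 2.00 (SE 0.15). *ldhbb*, lactate dehydrogenase B (-1.27 ± 0.14), and *pck2*, the mitochondrial phosphoenolpyruvate carboxykinase (-1.05 ± 0.15), also fell from near control level. *pck2* lost its call with the spread of the controls (adjusted p = 0.0026) and in some fits that left out an array.

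**Figure D4:**
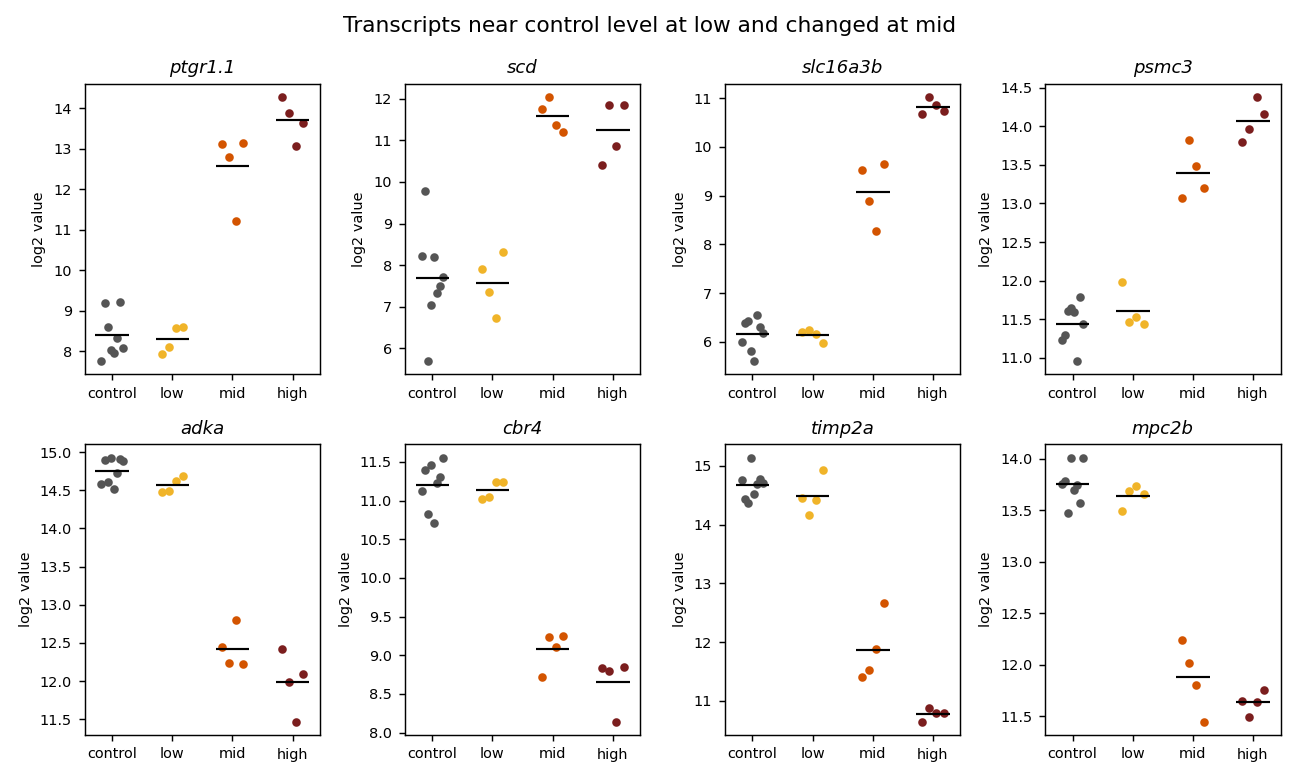
Log2 values on each array for 8 genes of the starting class, in 8 controls, 4 low, 4 mid and 4 high arrays, with a bar at each group mean; each vertical axis has its own range. The low mean is within 0.32 of the control mean in all 8 panels, and the mid arrays are apart from it, for *ptgr1.1* at 11.21 to 13.13 against 7.92 to 8.59 at low.

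Several detoxification and NADPH genes extended a rise that low had begun. *fthl28*, a ferritin heavy chain-like gene for iron storage, read 10.08, 9.96, 8.07 and 7.06 at low and 13.37, 12.84, 12.45 and 12.81 at mid, with controls at 5.61 to 8.07. The low arrays were spread over 3 log2 units and the mid arrays were not. Low values of 7.06 and, just barely, 8.07 lay inside the control range, so not every low pool showed a rise. The step was a log2 change of 4.08 ± 0.59 (SE), 16.9-fold higher, adjusted p = 3.1e-04. *tpmt.2*, a methyltransferase of thiol compounds, read 8.82, 8.14, 8.75 and 7.78 at low and 11.44, 11.16, 12.47 and 12.17 at mid (3.44 ± 0.32, adjusted p = 4.0e-05). In the glutathione list (28 probes, 19 genes) 9 probes rose (32.1% against 9.41% of all probes) and 5 fell (17.9% against 9.36%), so it moved both ways. *gsr*, glutathione reductase, rose by 2.48 ± 0.38 on top of 2.67 at low, and *mgst3b*, a microsomal transferase, by 1.76 ± 0.17 on top of 1.36. The transferases *gstt2* and *gstr* moved the other way, -1.63 ± 0.15 and -1.51 ± 0.19. Of 11 pentose phosphate probes 4 rose (36.4%), among them *pgd* (1.40 ± 0.24), *tktb* (1.40 ± 0.15) and *taldo1* (1.22 ± 0.14), all enzymes of the pathway. The 1 that fell was *prpsap1*, a regulator of the synthetase that draws on its product (-2.36 ± 0.36). In the thioredoxin, peroxiredoxin and NRF2-linked list 3 of 23 probes rose, with *prdx1*, a peroxide reductase, at 1.58 ± 0.22, and 1 fell, *akr1a1a*, an aldehyde reductase. *akr1a1a* had the largest fall among the genes named here, reading 11.71, 11.68, 12.28 and 10.88 at low and 7.42, 7.89, 9.44 and 8.26 at mid (-3.39 ± 0.41, adjusted p = 1.3e-04). Of these, *fthl28*, *gsr*, *pgd* and *prdx1* lost their calls with the spread of the controls (adjusted p = 0.00102, 0.0024, 0.0059 and 0.011), and they and *prpsap1* also lost them in at least 1 fit without an array. The glutathione list then had 6 probes higher and 4 lower, the pentose phosphate list 3 and 1, and the thioredoxin list 1 and 1 with the spread of the controls. Over all probes 3.96% were higher and 4.63% lower in that fit.

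Among genes of fatty acid oxidation, called changes at this step were nearly all falls, in both organelles. Of 35 probes for mitochondrial oxidation (26 genes) 15 fell, 42.9% against 9.36% of all probes, and 1 rose. The median step was -0.87, and the median against the controls went from -1.01 at low to -1.73 at mid (0.05 and 0.45 over all probes). *hadhaa*, the alpha subunit of the trifunctional protein, read 9.54, 10.22, 10.23 and 10.27 at low and 8.14, 7.88, 8.37 and 8.16 at mid, with controls at 11.27 to 11.97. *decr1*, a reductase needed for unsaturated fatty acids, read 8.10, 8.71, 8.57 and 8.98 at low and 6.59, 6.67, 7.15 and 6.88 at mid, with controls at 10.96 to 11.80. In both genes the 3 ranges were apart, controls above low above mid, and the steps were -1.93 ± 0.19, adjusted p = 4.5e-05 and -1.77 ± 0.20, adjusted p = 9.3e-05. Peroxisomal oxidation and biogenesis had 8 of 19 probes lower (42.1%) and 0 higher, with a median step of -1.06. Its largest changes were *crot*, which transfers shortened chains to carnitine (-2.47 ± 0.32), and *hsd17b4*, the multifunctional enzyme of the pathway, which read 14.30, 14.56, 14.66 and 14.71 at low and 11.44, 12.18, 12.73 and 12.18 at mid. For *hsd17b4* the larger part of the fall came at this step (-2.42 ± 0.24, against -0.47 at low). With the spread of the controls 12 mitochondrial and 5 peroxisomal probes were called lower, beside 4.63% of all probes, and leaving out 1 array at a time gave 11 to 16 and 3 to 7.

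Synthesis and elongation of fatty acids split. Of 32 probes (20 genes) 5 rose (15.6% against 9.41% of all probes) and 8 fell (25.0% against 9.36%), and the median step was 0.12. On the rising side stood *scd* and *hsd17b12a*, a reductase of the elongation cycle (2.91 ± 0.26, adjusted p with the spread of the controls = 0.0032). On the falling side stood *elovl6*, an elongase (-1.99 ± 0.29), and *tecrb*, the reductase that closes the elongation cycle (-1.43 ± 0.20). With the spread of the controls 0 probes of this list were called higher and 4 lower, *elovl6* not among them (adjusted p = 0.0011), and leaving out 1 array gave 3 to 8 lower. Over all probes 3.96% were higher and 4.63% lower with that spread.

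Lists for other liver functions held more falls than rises. The shares of probes lower were 29.0% for P450, 26.7% for glycogen, 18.5% for coagulation and complement and 27.3% for apolipoproteins. Over all probes 9.36% were lower, and 4.63% with the spread of the controls. In the cytochrome P450 list 9 of 31 probes fell and 2 rose, with a median step of -0.70, and the 2 that rose were both *cyb5r4*, a cytochrome b5 reductase and not a P450 (1.12 ± 0.13 on the stronger probe). *cyp4v2a*, a fatty acid hydroxylase, read 11.34, 11.78, 12.21 and 12.35 at low and 8.49, 9.10, 8.94 and 8.82 at mid (log2 change of -3.08 ± 0.23 (SE), 8.47-fold lower, adjusted p = 1.6e-05), continuing a fall of 1.73 at low. *cyp1a*, the enzyme induced by aromatic hydrocarbons, read 12.61, 12.25, 12.78 and 12.37 at low and 9.01, 11.30, 10.25 and 10.22 at mid. Its mid arrays were spread over more than 2 log2 units but lay below all low arrays (-2.31 ± 0.38, adjusted p = 6.6e-04), and 2 of its 3 probes were called. Glycogen genes had 4 of 15 probes lower and 0 higher, and those named were targeting subunits of protein phosphatase 1, which bring it to glycogen: *ppp1r3ca*, with 12.06, 12.46, 13.06 and 13.66 at low and 8.55, 9.84, 9.84 and 10.003 at mid (-3.25 ± 0.38, adjusted p = 1.1e-04), and *ppp1r3b* (-1.99 ± 0.34). Coagulation and complement genes had 5 of 27 probes lower and 0 higher, with *c1r*, a complement protease, at -1.78 ± 0.24 and *f7i*, a homologue of clotting factor VII, at -1.72 ± 0.24. Apolipoproteins and lipoprotein assembly had 3 of 11 lower and 0 higher, including *apoa4b.1*, an apolipoprotein (-1.72 ± 0.27). With the spread of the controls the probes called lower were 7 for P450, 2 for glycogen, 2 for coagulation and complement and 1 for apolipoproteins, and *cyb5r4*, *ppp1r3b* and *c1r* lost their calls (adjusted p = 0.0060, 0.0073 and 0.00103). Leaving out 1 array gave 5 to 8, 2 to 4, 1 to 6 and 0 to 2 probes in these lists, and *cyp1a*, *ppp1r3b*, *c1r*, *f7i* and *apoa4b.1* were each lost in at least 1 such fit. *creb3l3a*, a membrane-bound transcription factor of the liver, fell by 2.47 (SE 0.23), and *stard10*, a lipid transfer protein, by 3.19 (SE 0.30) with low at 13.05, 11.98, 13.30 and 12.69 and mid at 9.46, 9.63, 9.01 and 10.15.

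A small set of transcripts turned back at this step. Insulin-like growth factor binding proteins, which hold the growth factors in the blood, were among them. *igfbp1b* read 16.57, 16.35, 16.47 and 15.90 at low and 14.69, 14.58, 14.60 and 14.40 at mid, against 10.72 to 12.02 in the controls. Mid lay between both, 3.27 above the controls where low was 5.02 above them, and the step was a log2 change of -1.75 ± 0.16 (SE), 3.38-fold lower, adjusted p = 4.0e-05. *igfbp1a* read 16.07, 16.20, 15.93 and 16.10 at low and 14.29, 14.23, 14.39 and 14.56 at mid, so that 3 of the 4 mid arrays remained above the control range (13.31 to 14.28), at a mean 0.57 above the controls. On another of its probes all mid arrays (14.20 to 14.39) were above the highest control (13.71). All 3 of its probes were called, by -1.70 to -1.44. Some mid and high arrays shared the same value, 14.3937 for *igfbp1a* and 14.6049 for *igfbp1b*. The study replaced off-scale probes with their values from a weaker scan. Whether these bright probes had reached a limit of the signal was not tested. *mknk2b*, a kinase acting on the cap-binding initiation factor, read 9.47, 10.12, 9.93 and 9.74 at low and 8.16, 8.53, 8.22 and 8.36 at mid (-1.50 ± 0.16, adjusted p = 7.4e-05). *myo3a*, a class III myosin, returned to 0.02 against the controls from 1.97 at low (-1.94 ± 0.25, adjusted p = 1.9e-04). *sgk1*, a kinase induced by glucocorticoids, was called on 1 of 3 probes (-1.18 ± 0.20) and remained 3.44 above the controls at mid. *got2a*, mitochondrial aspartate aminotransferase, turned down (-1.17 ± 0.13) while *got2b*, its paralogue, rose (0.94 ± 0.14), and *map1lc3a*, a protein of autophagosome membranes, turned down on 1 of 3 probes (-1.17 ± 0.16).

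In the opposite direction, transcripts that were below the controls at low rose again at mid. *egln3*, a prolyl hydroxylase of the hypoxia-inducible factor, read 7.71, 7.32, 7.33 and 7.79 at low and 9.24, 9.94, 9.87 and 11.71 at mid, with controls at 8.37 to 10.20. All low arrays were below the controls, and 1 mid array was above them (log2 change of 2.65 ± 0.43 (SE), 6.28-fold higher, adjusted p = 5.5e-04). *cebpa*, a transcription factor of the differentiated liver, read 8.09, 8.80, 8.32 and 8.38 at low and 11.61, 9.83, 10.47 and 9.79 at mid, with controls at 9.995 to 11.41 (2.03 ± 0.36, adjusted p = 9.0e-04). Every low array was below all 8 controls, and the mid arrays overlapped the controls. *sgk2b*, a kinase related to *sgk1*, read 8.90, 9.59, 9.77 and 9.35 at low and 11.55, 11.10, 11.41 and 11.99 at mid, with controls at 10.23 to 11.38 (2.11 ± 0.23, adjusted p = 7.4e-05). Most of its mid arrays and all of its high arrays (12.49 to 13.01) were above the control range. *ndel1a*, a partner of the motor protein dynein, stepped by 1.29 ± 0.17, adjusted p = 1.9e-04 on 1 of 2 probes. *nfil3-6*, a repressor of the leucine zipper class, rose by 1.24 ± 0.21 and at mid was still -0.73 against the controls.

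Turning back did not carry any reversing probe to a called change on the far side of the controls at mid. This class holds only probes called at low. *calcoco1a*, given below with the autophagy list, is outside it, although its arrays passed from above the control range to below it. The absence of a call is not a return to control level, and *egln3* and *sgk2b* had mid arrays above the control range. Of the 25 reversing probes that fell, 9 were still called above the controls at mid, 16 were not called and 11 were within 0.32 of them on the log2 scale. Of the 19 that rose, 2 were still called below the controls, 17 were not called and 9 were within 0.32. With the spread of the controls added, *cebpa*, *egln3*, *sgk1*, *ndel1a* and *nfil3-6* lost their calls (adjusted p = 0.0039, 0.0028, 0.028, 0.0035 and 0.012), as did *got2a* and *map1lc3a* (0.0053 and 0.026), while *igfbp1b*, *igfbp1a*, *mknk2b*, *myo3a* and *sgk2b* kept them (5.2e-04, 1.6e-04, 3.7e-04, 2.2e-04 and 1.9e-04). Of the reversing genes, *cebpa*, *egln3*, *sgk1*, *nfil3-6* and *map1lc3a* also lost their calls in at least 1 fit without an array, as did *got2b*.

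**Figure D5:**
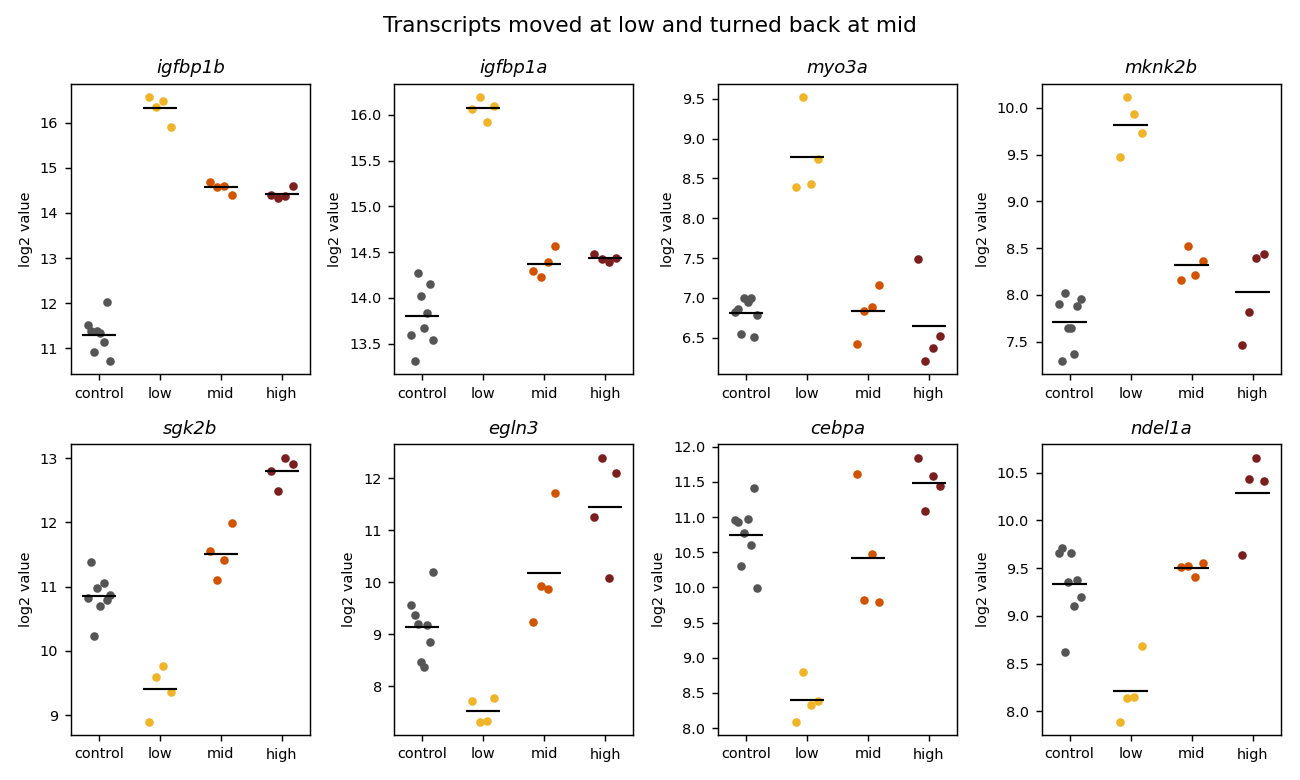
Log2 values on each array for 8 genes of the reversing class, in 8 controls, 4 low, 4 mid and 4 high arrays, with a bar at each group mean; each vertical axis has its own range. In the upper row the low mean is above the control mean and mid is below low, for *igfbp1b* at 14.40 to 14.69 against 15.90 to 16.57 at low; in the lower row the low mean is below the control mean and mid is above low.

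The remaining lists showed smaller or mixed changes, to be read against 9.41% of all probes higher and 9.36% lower. Solute carriers had 17 of 95 probes higher (17.9%) and 8 lower (8.42%). Among them *slc3a2b*, the heavy chain shared by several amino acid exchangers, rose by 2.01 ± 0.17 and accounted for all 3 probes that rose in the ATF4-linked list of 18, where *pck2* was the 1 that fell. *slc16a9a*, a monocarboxylate carrier, rose by 2.78 ± 0.35 but lost its call with the spread of the controls (adjusted p = 0.027). *slc43a1b*, an amino acid transporter gene, and *slc14a2*, a urea transporter, moved by -2.74 ± 0.40 and -2.64 ± 0.36. Bile acid and steroid handling had 3 of 29 probes higher (10.3%) and 5 lower (17.2%), including *hsd11b2*, which inactivates cortisol (-1.73 ± 0.27). Stress transcription factors had 5 of 69 higher (7.25%) and 6 lower (8.70%), both below the shares over all probes, with *atf7a* among the 10 largest falls (-2.71 ± 0.40). The *atf7a* arrays ranked in the same order as those of *tsfm*, and a shared signal was not tested. Amino acid catabolism had 1 of 59 higher (1.69%) and 4 lower (6.78%), among them *ftcd*, an enzyme of histidine breakdown (-0.98 ± 0.15). One-carbon and nucleotide synthesis had 1 of 18 higher (5.56%), *ppat*, the first enzyme of purine synthesis (0.98 ± 0.14). Lower were 2 (11.1%), with *mtr*, methionine synthase, at -1.39 ± 0.18. *hsd11b2*, *ftcd* and *ppat* lost their calls with the spread of the controls (adjusted p = 0.0016, 0.0016 and 0.0032), and they, *atf7a*, *slc14a2* and *slc43a1b* in at least 1 fit without an array, with *atf7a* kept in 3 of 8.

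Vesicle traffic had 6 of 84 probes higher (7.14%), led by *vps26c*, a subunit of a sorting complex (2.09 ± 0.34), and 1 lower, *rab11bb*, a GTPase of recycling endosomes, with 13.11, 11.13, 13.68 and 13 at low and 9.66, 9.26, 10.15 and 10.42 at mid (-2.86 ± 0.48, adjusted p = 6.7e-04). The *rab11bb* arrays also ranked in the same order as those of *tsfm*, and a shared signal was not tested. Autophagy and lysosome genes had 4 of 30 higher (13.3%), with *rab7b* and *lamp1a*, both of late endosomes and lysosomes, at 1.29 ± 0.14 and 1.16 ± 0.16. Lower were 2 (6.67%), with *calcoco1a*, an autophagy receptor gene, at -1.66 ± 0.14. All low arrays of *calcoco1a* (10.77 to 11.06) lay above the control range of 9.90 to 10.39, and all its mid arrays (9.15 to 9.57) below it. Its low level was not called against the controls, so the probe is outside the reversing class. Iron and metal handling had 4 of 24 higher (16.7%) and 0 lower. The respiratory chain had 3 of 32 higher (9.38%, the share over all probes being 9.41%) and 0 lower, with *cox17*, a copper chaperone of cytochrome oxidase, at 1.29 ± 0.17. In the apoptosis list 2 of 29 rose (6.9%) and 1 fell (3.45%). The 2 were *gadd45ba*, a stress-induced growth arrest gene (1.05 ± 0.14), and *pdcd11*, which despite its name acts in ribosomal RNA processing (1.247 ± 0.14), and the 1 was *pdcd4a*, an inhibitor of translation (-1.06 ± 0.18). Endoplasmic reticulum folding had 2 of 28 (7.14%) higher, *dnajb9b* (1.31 ± 0.17) and *selenos* (0.97 ± 0.15), both of protein quality control, and 2 lower (7.14%), *creb3l3a* and *calr*, a calcium-binding chaperone (-1.17 ± 0.17, 1 of 2 probes), below the shares over all probes. Cell cycle and DNA replication had 3 of 28 higher, including *cdk7* (1.28 ± 0.18), a kinase that activates other cell cycle kinases, and 1 lower, *cdc14b*, a phosphatase (-0.996 ± 0.16). Glycolysis and gluconeogenesis had 3 of 19 lower (15.8%, the share over all probes being 9.36%) and 0 higher. Splicing had 3 of 53 higher (5.66%), the citric acid cycle 1 of 15 (6.67%), the aminoacyl-tRNA synthetases 1 of 9 (11.1%) and the cytosolic ribosomal proteins 1 of 3 (33.3%), each with 0 lower. Cytoskeleton and tubulin had 2 of 15 higher (13.3%), both *tubb4b* (1.19 ± 0.17 on the stronger probe), and 1 lower (6.67%), *tuba8l2* (-1.34 ± 0.15), each a tubulin. *vps26c*, *gadd45ba*, *pdcd4a*, *calr* and *cdc14b* lost their calls with the spread of the controls (adjusted p = 0.00106, 0.062, 0.0024, 0.0083 and 0.0026). In at least 1 fit without an array *vps26c*, *rab11bb*, *pdcd4a*, *selenos*, *calr*, *cdc14b* and *tubb4b* were lost. With the spread of the controls, probes called higher were 2 for vesicle traffic, 2 for autophagy and lysosome and 1 for iron and metal handling. The respiratory chain had 2, cell cycle 3, the citric acid cycle 1 and splicing 0, beside 3.96% of all probes. Glycolysis and gluconeogenesis then had 1 lower, beside 4.63%.

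In 2 lists limma called no probe at this step. Over all probes 66.9% had an unadjusted p below 0.05, a share that neither list exceeded. Of 14 circadian clock probes 9 had an unadjusted p below 0.05, and the member with the largest change was *rorab*, a nuclear receptor of the clock, at -1.28 ± 0.27, adjusted p = 0.0024. Of 5 cholesterol synthesis probes (3 genes) 3 had an unadjusted p below 0.05, all of *acat2*, which joins acetyl-CoA units, at 1.17 ± 0.31, adjusted p = 0.0084, on the strongest.

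Whether the change from low to mid differed from that from mid to high was tested within the 12 exposed arrays. Like the direct test of the step, it leaves out the error of the control means. The difference of steps passed an adjusted p of 0.001 in 10 of 5481 probes (0.182%), of which 6 had symbols: 3 probes of *adka*, 2 of *igfbp1a* and 1 of *hrh3*. For *hrh3*, the histamine H3 receptor, the low arrays read 5.82, 5.83, 5.60 and 5.85 and the mid arrays 7.71, 8.05, 7.87 and 7.54, and the high arrays 6.65 to 7.58, which overlaps mid. Its step was 2.02 ± 0.14, adjusted p = 1.5e-05, the change from mid to high was -0.63 and was not called (adjusted p = 0.086), and the difference was 2.65 ± 0.34 (SE), adjusted p = 9.9e-04. *igfbp1a* changed by -1.70 from low to mid and by 0.06 from mid to high (difference -1.76 ± 0.20 (SE), adjusted p = 5.8e-04). Whether its bright signal had reached a limit was not tested. Among the 4 unnamed probes, chosen here after their values were seen, A_15_P484590 had the largest rise of the whole table at the step, 4.93 ± 0.33, from 6.75 to 8.04 at low to 11.76 to 13.02 at mid. Its controls ran from 5.05 to 9.53, which holds all its low values and no mid value. With the spread of the controls added, the SE of its step was 0.89. The test called 0 to 10 probes when 1 array was left out, 0 of them without mid replicate 1, 2 or 3 or high replicate 1 or 2. At the step itself, the unnamed probes A_15_P114281 and A_15_P158211 lost their calls with the spread of the controls (adjusted p = 0.0028 and 0.016). The others of the 10 kept theirs.

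Feeding gave a point of comparison that shares no array with the step. Fish unfed for 50 h differed from fed fish in 54 probes (0.985%), 44 higher (0.803%) and 10 lower (0.182%), by the same thresholds. Of the starting genes, *ankrd22* was among the 44, at 2.26 (adjusted p = 1.0e-03). *cldnb* and *slc16a3b* were at 3.24 and 3.92 in unfed against fed fish, on the same side as from low to mid, and were not called (adjusted p = 0.0070 and 0.021). *scd* was at -5.69 in unfed fish, on the opposite side to its 4.01 ± 0.32 from low to mid, and was not called either (adjusted p = 0.011). The unnamed probe A_15_P484590 had -5.01 in unfed fish beside 4.93 at the step, and was not called in unfed fish (adjusted p = 0.016). Its unfed arrays were spread from 5.86 to 11.49, and its fed arrays ran from 11.27 to 13.57. For *ptgr1.1*, *psmc3*, *adka* and *zfand2a* the unfed difference was 0.38, -0.35, -0.11 and -0.18. The median over the list was -0.10 for the proteasome, -0.19 for mitochondrial and -0.23 for peroxisomal fatty acid oxidation in unfed fish, beside 1.00, -0.87 and -1.06 at the step. These unfed medians were not particular to the 3 lists, with ribosome biogenesis at -0.21 and cytochrome P450 at -0.20. Over all lists they ran from -1.34 (cholesterol synthesis) to 0.22 (cytoskeleton and tubulin).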

How the data were processed

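Liver RNA of pooled male zebrafish was hybridised to 1-colour Agilent arrays. The authors scanned the DDVP arrays at 2 laser powers, quantile normalised the median signals, took log2, kept probes above noise, selected those that changed in a joint comparison and removed a batch effect with Partek Genomic Suite, and deposited these log2 values. Deposited scanner files of the 12 fasting arrays held background-corrected intensity values (Agilent Feature Extraction), which were used for probe names and to check the table. After log2, quantile normalization of the 12 arrays and centring of each probe, they differed from the table by a median SD of 0.0004. Depth does not apply to arrays, and the 4 arrays a group limit the precision.

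Names came from the accessions of the scanner files through RefSeq and gene name tables of another assembly, so no coordinates are given. Groups came from the sample titles. The step was fitted with limma 3.58.1 in R 4.3.3 (lmFit and eBayes) on the 8 low and mid arrays, with Benjamini-Hochberg adjustment over 5481 probes. Called means an adjusted p of at most 0.001 and at least 1.8-fold, after the study's thresholds. The differences from the controls, the difference of steps and the feeding comparison used the same method. Named genes were the 10 largest rises and falls and the 5 largest each way among starting, reversing and step-differing probes. These had no clone-style names, and their 8 arrays did not overlap between low and mid. The 2 largest called changes each way in every list were also named, without the condition on overlap. The alternatives were all 20 arrays, the spread of the controls, a replicate block, left-out arrays, other normalizations, moderation, weights, thresholds and a filter on dim probes. The fit was tested on simulated data. Members and lists were chosen with earlier results of these data known. A planned count of promoter motifs was not run, because no promoter sequence was used here. A few genes that the naming rule chose are not reported here.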

Additional observations from a re-analysis of the deposited data

Results flagged for a closer look

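Among 224 groups of 4 arrays behind the named probes, 14 (6.25%) held an array set apart from the other 3 by Dixon's criterion, which at its 95% level flags a small share of groups by chance alone. The observed share was near that expected at this level, so the flags are not read as results about these arrays. In the low group the array stood below the others for *hrh3* (5.60, replicate 3), *fbxl3b* (11.90, replicate 2), *creb3l3a* (9.49, replicate 1), *hadhaa* (9.54, replicate 1) and *tubb4b* (12.22, replicate 4). It stood above them for *psmc3* (11.98, replicate 1), *elovl6* (10.89, replicate 4) and *acat2* (13.85, replicate 4). In the mid group it stood below for *ptgr1.1* (11.21, replicate 3), *ppp1r3ca* (8.55, replicate 1) and *gsr* (12.32, replicate 2), and above for *pgd* (14.89, replicate 2), *calcoco1a* (9.57, replicate 2) and *got2b* (13.88, replicate 1). All values are on the log2 scale, and the flags were spread over 4 low and 3 mid arrays.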

How the results depend on the processing

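Main counts were 1029 probes called at the step, 345 starting, 44 reversing and 10 with differing steps. With the spread of the controls included these became 471, 139 and 16 for the first 3. Probe-wise variances without moderation gave 85 called probes, an adjusted p of at most 0.05 gave 1575, and a starting limit of 1.5-fold gave 551. Leaving out 1 array gave 543 to 894 called probes, the low counts being those without low replicate 3 (570) or 4 (556) and mid replicate 1 (569) or 2 (543). Probes with differing steps numbered 29 in the fit over all 20 arrays, 0 with the replicate block, and 0 to 10 when 1 array was left out. There were 0 without mid replicates 1, 2 or 3 and without high replicates 1 or 2, 2 without mid replicate 4, and 3 without low replicates 2 or 4 and high replicates 3 or 4. Centring each array on its median moved the split from 516 higher of 1029 to 418 higher of 1031. All other settings tried gave counts within 1.5 times of the main ones, and none reversed the direction of a named gene. Same-numbered low and mid arrays deviated together weakly (correlations of 0.196, 0.189, 0.069 and 0.162), so the numbers were not taken as pairs. The replicate block gave 917 called probes. The count of promoter motifs was not run. The probes had been selected on these arrays, the batch step cannot be undone, and 4 pools a group bound the precision.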
